A study of Mus musculus with 48 samples.

Results

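The superior cervical ganglion (SCG) of mice was sampled 24 h after a systemic inflammatory challenge, and its microRNAs (miRNAs) and tRNA fragments (tRFs) were counted. The 8 libraries described here were chosen by label, as SCG taken at 24 h, out of 48 libraries in the series. They came from Balb/c mice aged 2.5 months. In the LPS group, 4 mice had an intraperitoneal dose of 2.5 mg/kg lipopolysaccharide (LPS) from Escherichia coli in 0.2 mL saline, and in the saline group 4 mice had the same volume of saline. Replicates 1 and 2 of each group were female and replicates 3 and 4 male. Both SCG of a mouse were collected and RNA was taken from whole tissue, so fewer cells of a type and less RNA per cell cannot be told apart in any value below. The other 40 libraries are SCG taken at 4 h and 7 d, and the trigeminal ganglion (TG), a sensory ganglion, at all 3 times.

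The SCG holds the sympathetic neurons that supply the head and neck, with satellite glia, Schwann cells, vessels and resident immune cells around them. Lipopolysaccharide is recognised by Toll-like receptor 4, which activates the transcription factor NF-kB. In macrophages NF-kB switches on the genes of miR-155 and miR-146a; miR-155 favours inflammatory signalling, and miR-146a lowers the adaptor proteins IRAK1 and TRAF6 and so acts as a brake. MiR-21 is induced in many inflamed and injured tissues, and miR-223 and miR-142 are made mainly by blood-forming cells. A miRNA pairs with its targets mostly through its seed, bases 2 to 8. A tRF is a piece cut from a mature tRNA, named for its position: 5'-half and 3'-half when the cut is in the anticodon loop, shorter or longer 5'-tRF and 3'-tRF that share an end with the tRNA, and i-tRF from inside it. Stress cleavage by angiogenin, a secreted ribonuclease, is a known source of such pieces.

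The mature miRNAs that passed the test in the joint fit or in the fit without 1 outlying library of another time are printed with the seed in capitals, as RefSeq gives them on GRCm38.p6, together with the family members of the same seed.
miR-155-5p: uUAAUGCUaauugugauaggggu
miR-21a-5p: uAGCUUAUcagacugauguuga
miR-146a-5p: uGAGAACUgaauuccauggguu
miR-146b-5p: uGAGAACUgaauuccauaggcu
miR-223-5p: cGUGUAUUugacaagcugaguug
miR-142a-3p: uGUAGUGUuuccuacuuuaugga
miR-222-3p: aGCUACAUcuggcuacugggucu
miR-221-3p: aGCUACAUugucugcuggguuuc
The paired seeds are those of miR-146a-5p with miR-146b-5p and of miR-222-3p with miR-221-3p. Each of the other 4 miRNAs was the sole one tested with its seed among those with a RefSeq sequence.

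The hairpins of the strongest pair are shown with both arms in capitals, since in each of them nearly all counts came from the 5p arm.
Mir155: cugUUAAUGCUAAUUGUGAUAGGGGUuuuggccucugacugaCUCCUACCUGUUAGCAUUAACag
Mir21a: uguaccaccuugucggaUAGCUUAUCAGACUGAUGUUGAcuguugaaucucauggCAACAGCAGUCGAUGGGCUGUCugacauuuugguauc
On GRCm38, Mir155 lies at chr16:84714140-84714204 on the plus strand in an exon of the noncoding RNA gene Mir155hg. Mir21a lies at chr11:86584067-86584158 on the minus strand and overlaps an exon of Vmp1, a protein-coding gene. Mir223 (chrX:96242817-96242926, plus strand) overlaps an exon of F630028O10Rik, and Mir142 (chr11:87756864-87756927, plus strand) lies within Mir142hg but in no annotated exon. Mir146 (chr11:43374397-43374461, minus strand) and Mir222 (chrX:19146893-19146971, minus strand) overlap no annotated gene.

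Few tRF sequences are shown. The most abundant histidine and glycine fragments stand for the parent tRNAs that follow glutamate in share, and the proline and leucine fragments were among the 10 tRFs of smallest p. The parent tRNA and type of a tRF are those of the deposited annotation, whose genome positions are human, so no position is given.
tRF-35-6SXMSL73VL4YMY: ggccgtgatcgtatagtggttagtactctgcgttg
tRF-31-P4R8YP9LON4VD: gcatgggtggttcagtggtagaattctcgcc
proline TGG 5'-half of 33 bases: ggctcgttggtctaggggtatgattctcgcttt
tRF-17-HR0VX6J: atcccaccgctgccacc

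Depth was similar between groups for miRNAs and uneven for tRFs. Total miRNA counts were 2554437 to 3508130 in the LPS libraries and 2489872 to 3353329 in the saline libraries. Total tRF counts were 71644 to 285515 in the LPS libraries and 85892 to 384488 in the saline libraries. The labels give a mean RNA integrity number, a score that falls as RNA degrades, of 8.3 (6.4 to 9.3). This entry is the same for every library, so the part of RNA integrity in the tRF values was not tested. In LPS libraries 814 to 847 miRNAs and 1666 to 2161 tRFs had at least 1 count, and in saline libraries 798 to 822 miRNAs and 1581 to 2360 tRFs. In each of the 12 pairs of replicates the counts differed far more than counting error allows, with a chi-square per degree of freedom of at least 80.1 for miRNAs and 17.4 for tRFs, so no library was a copy of another. The neuronal miRNAs of the ganglion were summed as a description. With no reference tissue beside it, the sum does not test the identity or purity of a library. The 17 miRNAs of the neuron list summed to 81910 to 112680 CPM in LPS libraries and 100250 to 110140 CPM in saline libraries, led by miR-7a-5p and miR-218-5p. CPM are counts scaled for library size with TMM factors, which correct for composition, and they are not divided by length.

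Of all miRNAs tested in the joint fit, miR-21a-5p and miR-155-5p were the ones called higher at 24 h after LPS. The level of miR-155-5p was 140.7, 107.2, 100.6 and 189.9 CPM in LPS replicates 1 to 4, and 14.2, 13.9, 20.1 and 16.4 CPM in saline replicates 1 to 4. The groups lay far apart, and males and females overlapped within the LPS group. The log2 fold change was 3.05 ± 0.39 (SE; edgeR quasi-likelihood test, adjusted p = 7.93e-05). The level of miR-21a-5p was 23441, 23986, 36789 and 30606 CPM in the LPS libraries, and 5906, 5508, 10444 and 4350 CPM in the saline libraries. Saline replicate 3 was the highest of its group and still lay below every LPS library. Its log2 fold change was 2.13 ± 0.32 (edgeR, adjusted p = 0.000419). At these levels miR-21a-5p ranked among the abundant miRNAs of the ganglion after LPS, while miR-155-5p stayed a scarce one. These 2 were the miRNAs called of 506 tested (0.395%), 0 were called lower, and 24 (4.74%) had an unadjusted p under 0.05. Both stayed called when each of the 8 libraries was left out in turn, with log2 fold changes of 2.78 to 3.21 for miR-155-5p and 1.96 to 2.51 for miR-21a-5p.

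The opposite arms of these hairpins were close to the limit of detection. MiR-155-3p had 1, 4, 4 and 5 counts in the LPS libraries and 0, 0, 1 and 1 counts in the saline libraries. MiR-21a-3p had 7, 4, 7 and 7 counts in the LPS libraries and 2, 0, 3 and 0 counts in the saline libraries. Neither passed the filter on low counts, and no fold is given for them. Summed over the group, miR-155-5p had 1728 counts in LPS libraries and 188 counts in saline libraries, and miR-21a-5p had 365783 and 76019 counts in LPS and saline libraries. For miR-146a-3p no library had a count. The limit a count of 0 allows, 3 counts, corresponds to 0.855 to 1.2 CPM when scaled to total counts without TMM factors. That limit covers counting error only.

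**Figure D1:**
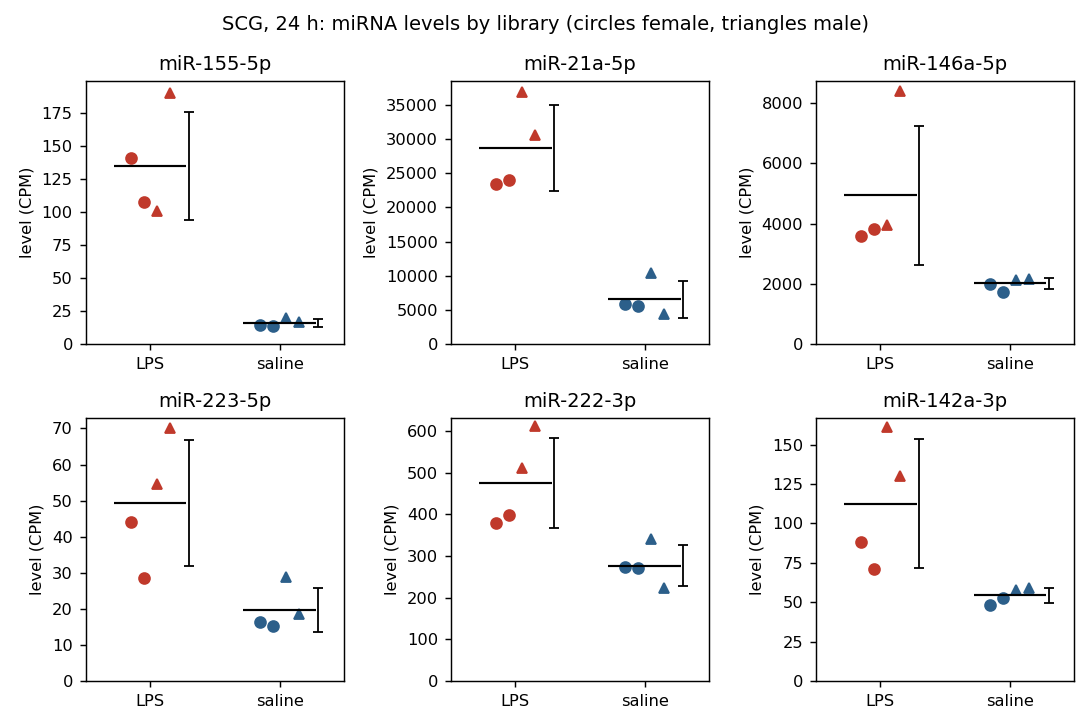
Level in CPM of 6 miRNAs in each SCG library of 24 h, LPS left of saline; points are libraries, horizontal lines group means and bars 1 SD (n = 4 each). For miR-155-5p the LPS libraries sit between 100.6 and 189.9 CPM, all above the saline libraries at 13.9 to 20.1 CPM, and only miR-223-5p has an LPS library that touches the range of saline.

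More miRNAs passed the test in the fit without SCG 7 d LPS replicate 2, a library of another time. In that library miR-142a-3p stood at 3756 CPM, against 47.1 to 161.4 CPM in the other SCG libraries. It was also apart for miR-128-3p, at 40706 CPM against 1595 to 6333 CPM, and for miR-7a-5p, at 6855 CPM against 28147 to 43145 CPM. The library was set aside by its own values, so the fit without it is no independent test. Without that library 6 of 514 miRNAs (1.17%) were called, all higher after LPS. MiR-146a-5p had 3602, 3814, 3952 and 8389 CPM in the LPS libraries, against 1993, 1745, 2144 and 2174 CPM in the saline libraries. All LPS libraries were above all saline libraries, and LPS replicate 4, a male, was the highest. The log2 fold change was 1.28 ± 0.30 (edgeR, adjusted p = 0.0783) in the fit of 24 libraries, and 1.31 without the 7 d library (adjusted p = 0.0445). MiR-223-5p had 44.1, 28.7, 54.6 and 70.1 CPM in the LPS libraries, against 16.3, 15.3, 28.7 and 18.6 CPM in the saline libraries. LPS replicate 2 and saline replicate 3 were at the same level, and the other LPS libraries were higher than every saline library. Its log2 fold change was 1.32 ± 0.32 (adjusted p = 0.0783, and 0.00507 without the 7 d library).

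MiR-222-3p, of a pair with miR-221 that is induced by growth and inflammatory signals, had 378.6, 399.2, 510.1 and 612.3 CPM in the LPS libraries. In the saline libraries it had 272.9, 271.1, 340.5 and 222.9 CPM. The groups did not overlap, with the males highest after LPS, and the log2 fold change was 0.79 ± 0.21 (edgeR, adjusted p = 0.156, and 0.0445 without the 7 d library). MiR-142a-3p had 88.2, 70.8, 161.4 and 129.9 CPM in the LPS libraries, against 48.1, 52.5, 57.4 and 58.8 CPM in the saline libraries. Again the groups did not overlap, and the log2 fold change was 1.12 ± 0.83 (adjusted p = 0.997), or 1.09 without the 7 d library (adjusted p = 0.0445). That library was itself outlying for miR-142a-3p, so the call of miR-142a-3p in the fit without it is no independent result. In that fit miR-223-5p was called, like miR-21a-5p and miR-155-5p, whichever of the 8 libraries was also left out. Of the others, miR-146a-5p and miR-222-3p were called in 4 of these 9 fits and miR-142a-3p in 3 (edgeR, highest adjusted p = 0.275 for each). Leaving out saline replicate 1, 2 or 4 or LPS replicate 4 as well gave 3 calls each.

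The other arms and seed partners of these miRNAs gave values on the same side. MiR-223-3p, the arm usually dominant in neutrophils, had 12.9, 11.05, 32.9 and 28.6 CPM in the LPS libraries, against 6.09, 5.90, 11.9 and 10.96 CPM in the saline libraries (log2 fold change 1.28 ± 0.48, adjusted p = 0.635). In all 8 libraries it lay below miR-223-5p. MiR-142a-5p had 197.6, 183.0, 330.6 and 442.5 CPM in the LPS libraries, against 161.8, 181.4, 205.1 and 146.2 CPM in the saline libraries. The female LPS libraries lay within the saline range and the males above it. MiR-146b-5p had 2471, 2754, 4071 and 4214 CPM in the LPS libraries, against 2402, 1938, 2361 and 1813 CPM in the saline libraries (0.69 ± 0.30, adjusted p = 0.780). Its LPS libraries were above every saline library, the females by a narrow margin. MiR-221-3p had 150.0, 198.3, 273.1 and 383.1 CPM in the LPS libraries and 128.7, 162.2, 198.0 and 132.3 CPM in the saline libraries (0.70 ± 0.32, adjusted p = 0.953). MiR-503-5p, among the 10 miRNAs of smallest p, was scarce, with 5.90, 4.48, 6.90 and 13.6 CPM in the LPS libraries and 2.71, 1.77, 3.73 and 3.29 CPM in the saline libraries (1.45 ± 0.50, adjusted p = 0.609).

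**Figure D2:**
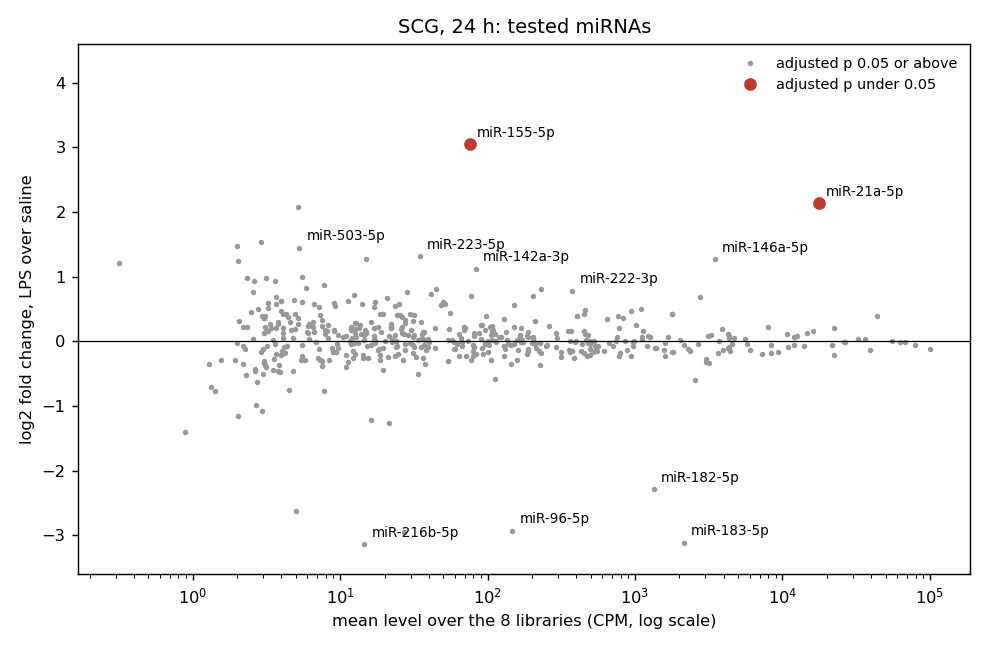
Log2 fold change, LPS over saline, of the 506 tested miRNAs against their mean level over the 8 libraries in CPM on a log scale; coloured points have adjusted p under 0.05. The 2 coloured points are miR-21a-5p at 2.13 and miR-155-5p at 3.05, and the labelled points from -3.14 to -2.28 are miRNAs that were high in saline replicate 1.

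Seen without a model, 16 of 506 miRNAs (3.16%) were higher in all 4 LPS libraries than in every saline library, and 7 (1.38%) were lower. Of the 70 assignments of 4 against 4 libraries, 1 puts every LPS library above saline and 1 puts every one below. The share of miRNAs that were lower is near 1 in 70, so their names are a description only. The 16 were miR-21a-5p, miR-155-5p, miR-222-3p, miR-146a-5p, miR-503-5p, miR-29b-1-5p, miR-674-5p, miR-146b-5p, miR-194-2-3p, miR-30c-1-3p, miR-370-5p, miR-142a-3p, miR-125a-3p, miR-16-1-3p, miR-20a-5p and miR-17-5p. The 7 were miR-101c, miR-6945-3p, miR-493-3p, miR-1947-5p, miR-128-3p, miR-543-3p and miR-409-3p. Those outside the groups described above were named after their values were seen. Among the 7, miR-128-3p, which is abundant in neurons, had 2030, 2083, 1954 and 1675 CPM in the LPS libraries, against 5923, 2365, 2114 and 2186 CPM in the saline libraries. Saline replicate 1 stood far above the rest, and the log2 fold change of -0.60 ± 0.67 (edgeR, adjusted p = 0.997) was -0.29 without it.

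Lists of miRNAs are given as a description. They were chosen with earlier results of these data known, so they are no independent test of which kinds moved. The NF-kB and LPS-induced list takes in both arms of its hairpins and holds both called miRNAs. Of its 13 tested members, 2 were called higher, 0 were called lower and 10 had a log2 fold change above 0. The median was 0.69, beside 0.02 over all 506 miRNAs, of which 275 were above 0. The summed level of the list was 30625 to 46139 CPM in LPS libraries and 9067 to 15950 CPM in saline libraries, most of it miR-21a-5p. MiR-132-5p and miR-212-5p, which the factor CREB induces in neurons, had 117.8 to 204.9 CPM and 89.6 to 154.5 CPM in LPS libraries, against 114.2 to 192.5 CPM and 95.0 to 164.8 CPM in saline libraries. Of the same cluster, miR-132-3p had 25.1 to 36.8 CPM in LPS libraries and 17.1 to 28.3 CPM in saline libraries, with overlap. Its log2 fold change of 0.38 was the highest of the 3 tested members, of which 0 were called. With a library left out it ran from 0.21 to 0.50. MiR-147-3p, an LPS-induced miRNA of macrophages, was too scarce to test.

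Of the 9 tested leukocyte miRNAs, 0 were called in the joint fit. Without SCG 7 d LPS replicate 2, 2 were called higher, among them miR-142a-3p, for which that library was outlying. The 9 had a median log2 fold change of 0.81 in the joint fit, and 7 of them were above 0. With a library of 24 h left out the median ran from 0.50 (LPS replicate 4) to 1.08 (LPS replicate 2). The whole list summed to 672 to 1070 CPM in LPS libraries and 561 to 597 CPM in saline libraries, which do not overlap. Its members did not move alike. The lymphocyte miR-150-5p had 232.0, 122.7, 152.2 and 210.2 CPM in the LPS libraries and 125.3, 132.7, 122.7 and 110.7 CPM in the saline libraries, with LPS replicate 2 inside the saline range. MiR-342-5p had 98.4 to 126.1 CPM in LPS libraries and 87.6 to 139.2 CPM in saline libraries. The erythroid list had 0 of 7 called and a median log2 fold change of 0.15, which ran from -0.05 without LPS replicate 4 to 0.51 without saline replicate 3. The red cell miR-451a had 599.4, 264.6, 552.5 and 434.2 CPM in the LPS libraries, against 226.9, 369.6, 486.7 and 320.5 CPM in the saline libraries, with overlap. The part of blood left in the tissue in the leukocyte values was not tested.

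**Figure D3:**
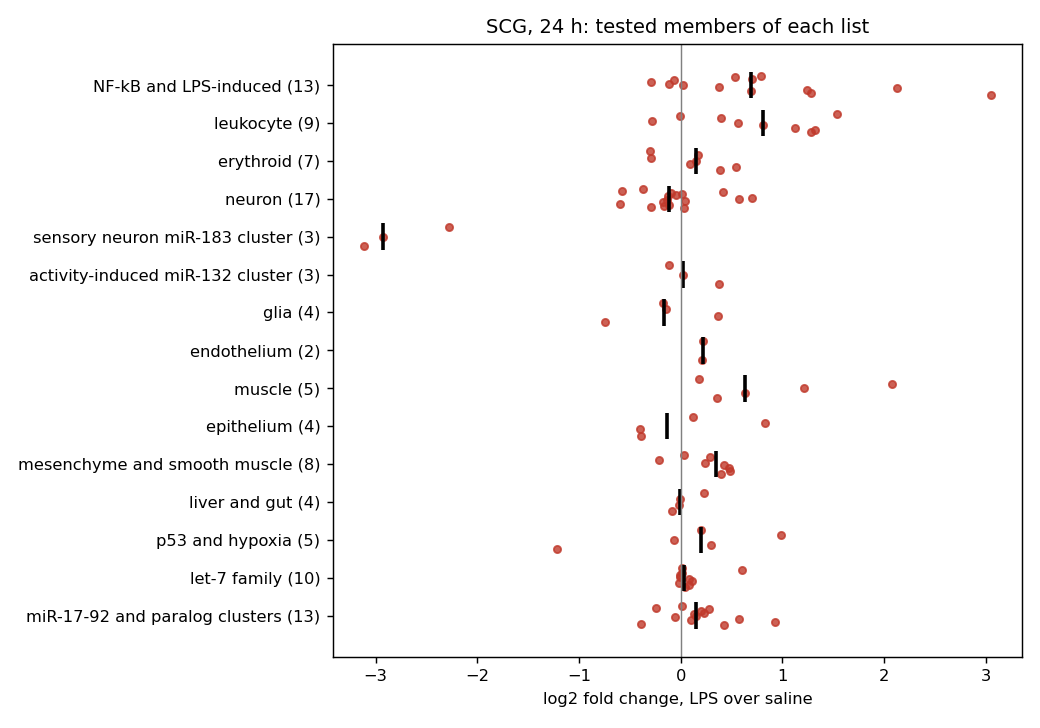
Log2 fold change, LPS over saline, of each tested member of the 15 lists (points; number tested in brackets), with the list's median as a black bar. The top list (NF-kB) has a median of 0.69 and the leukocyte list one of 0.81, while the neuron list lies around -0.12.

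Neuronal and glial miRNAs gave no call. The neuron list had 0 of 17 called, 6 above 0 and a median log2 fold change of -0.12. The median was -0.20 without LPS replicate 2, and from -0.06 to -0.02 without LPS replicate 3, LPS replicate 4, saline replicate 1 or saline replicate 2. MiR-7a-5p, which is enriched in neuroendocrine and neuronal cells, had 42071, 41590, 32895 and 32166 CPM in the LPS libraries, against 37287, 43145, 40586 and 42700 CPM in the saline libraries. The female LPS libraries lay among the saline libraries and the males below them. MiR-9-5p, a neuronal and neural progenitor miRNA, had 9798, 11402, 6770 and 7280 CPM in the LPS libraries, against 10920, 10546, 8511 and 9472 CPM in the saline libraries. LPS replicate 2 was the highest of the 8 libraries and the male LPS libraries were the lowest. The miR-338 arms, made by myelinating glia, had 397 to 642 CPM (3p) and 1344 to 1928 CPM (5p) in LPS libraries, against 470 to 792 CPM and 1592 to 2395 CPM in saline libraries. MiR-375-3p differed more between libraries than between groups, with 34.04, 54.6, 401.0 and 307.1 CPM in the LPS libraries and 253.3, 351.6, 409.9 and 6.21 CPM in the saline libraries.

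MiRNAs of connective tissue and vessel walls differed widely between libraries of the same group. MiR-143-3p of smooth muscle and fibroblasts, one of the 6 most abundant miRNAs, had 13851, 25402, 103650 and 55934 CPM in the LPS libraries, against 21823, 42412, 67364 and 21130 CPM in the saline libraries. MiR-199a-3p of mesenchymal cells followed with 725.9, 927.1, 3561 and 2922 CPM in the LPS libraries and 1109, 1552, 2181 and 1172 CPM in the saline libraries. LPS replicate 3 was the highest and LPS replicate 1 the lowest of the 8 libraries for both. The list of 8 had 0 called and a median log2 fold change of 0.34, which rested on LPS replicate 3: without it the median was -0.24, with 1 of 8 above 0. It was -0.02 in a fit of the 8 libraries of 24 h alone, and 0.73 without saline replicate 3. The endothelial miR-126a-3p had 22226, 17592, 35000 and 20982 CPM in the LPS libraries and 19168, 21799, 25159 and 17185 CPM in the saline libraries. Of the muscle list 0 of 5 were called, 5 had a log2 fold change above 0 and the median was 0.63. That median was 0.18 with no sex term, with 3 of 5 above 0. In a fit of the 8 libraries of 24 h alone it was -0.03, with 2 of 4 above 0. Leaving out LPS replicate 4 gave -0.28, with 2 of 6 above 0. Without a filter 1 member, miR-206-3p, was called higher. The leading member of the list, miR-1a-3p, had 192 to 1362 CPM in LPS libraries and 341 to 2246 CPM in saline libraries. Both ends of this range were lower after LPS, although the fitted log2 fold change of miR-1a-3p was above 0. The epithelial miR-203-3p had 264 to 334 CPM in LPS libraries and 262 to 319 CPM in saline libraries. The male LPS libraries, in which miR-142a-3p, miR-223-5p and miR-21a-5p were higher than in the female ones, also had the higher miR-143-3p, miR-199a-3p and miR-1a-3p of the LPS group, and the part of these miRNAs in those results was not tested.

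Other families gave no call. The 10 let-7 miRNAs, which are found in most differentiated cells, had a median log2 fold change of 0.03 (-0.13 without LPS replicate 4 and 0.15 without LPS replicate 1) and 0 called. Let-7f-5p had 54759 to 85206 CPM in LPS libraries and 63498 to 72458 CPM in saline libraries. The most abundant miRNA, miR-99a-5p, had 103620, 107320, 95120 and 76685 CPM in the LPS libraries and 113150, 108290, 101160 and 94139 CPM in the saline libraries. The miR-17-92 and paralog clusters, active in dividing cells, had 0 of 13 called and a median of 0.15, which was 0.04 without LPS replicate 4 and 0.36 without saline replicate 3. Of the 13, 2 members, miR-17-5p and miR-20a-5p, were above saline in all LPS libraries, beside 16 of 506 (3.16%) over all miRNAs. MiR-20a-5p had 60.1, 50.5, 56.2 and 64.4 CPM in the LPS libraries and 37.6, 40.1, 35.8 and 43.5 CPM in the saline libraries. In the p53 and hypoxia list 0 of 5 were called, and the hypoxia-induced miR-210-3p had 22.4 to 24.8 CPM in LPS libraries and 16.1 to 25.4 CPM in saline libraries. Of 4 liver and gut miRNAs 0 were called.

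One saline library weighed heavily on the lowest fold changes. The cluster of miR-183, miR-96 and miR-182, which marks sensory neurons and hair cells, had 0 of 3 tested members called by edgeR and a median log2 fold change of -2.93. DESeq2 called miR-183-5p (adjusted p = 0.0196) and miR-96-5p (adjusted p = 0.0485) lower, and edgeR without a filter called 4 of 6 members lower. MiR-183-5p had 399.1, 120.3, 161.1 and 533.8 CPM in the LPS libraries, against 13472, 1076, 412.1 and 876.0 CPM in the saline libraries. Saline replicate 1 was more than 10 times any other of the 8 libraries, and without it the log2 fold change of -3.11 ± 1.00 (edgeR, adjusted p = 0.464) was -1.30. The median of the cluster was then -1.01, and over the 23 settings run it stayed below 0, from -3.66 to -1.01. Among SCG libraries of all times other than saline replicate 1, miR-183-5p reached 4379 CPM. MiR-96-5p had 936.5 CPM and miR-182-5p 7760 CPM in saline replicate 1, against 10.7 to 67.5 CPM and 98.8 to 761.0 CPM in the other 7 libraries. MiR-216b-5p (89.0 CPM), miR-217-5p (176.7 CPM) and miR-34a-5p (79.2 CPM) were also highest there, the last 2 of them named after their values were seen. In TG at 24 h, miR-183-5p averaged 41762 ± 3566 CPM after LPS and 41001 ± 4763 CPM after saline, and miR-216b-5p averaged 310.7 ± 26.03 CPM after LPS and 289.4 ± 50.5 CPM after saline (SD, n = 4 each; TMM scaling over 48 libraries). The part of sensory ganglion RNA in saline replicate 1 was not tested. MiR-155-5p and miR-21a-5p were called with and without this library.

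**Figure D4:**
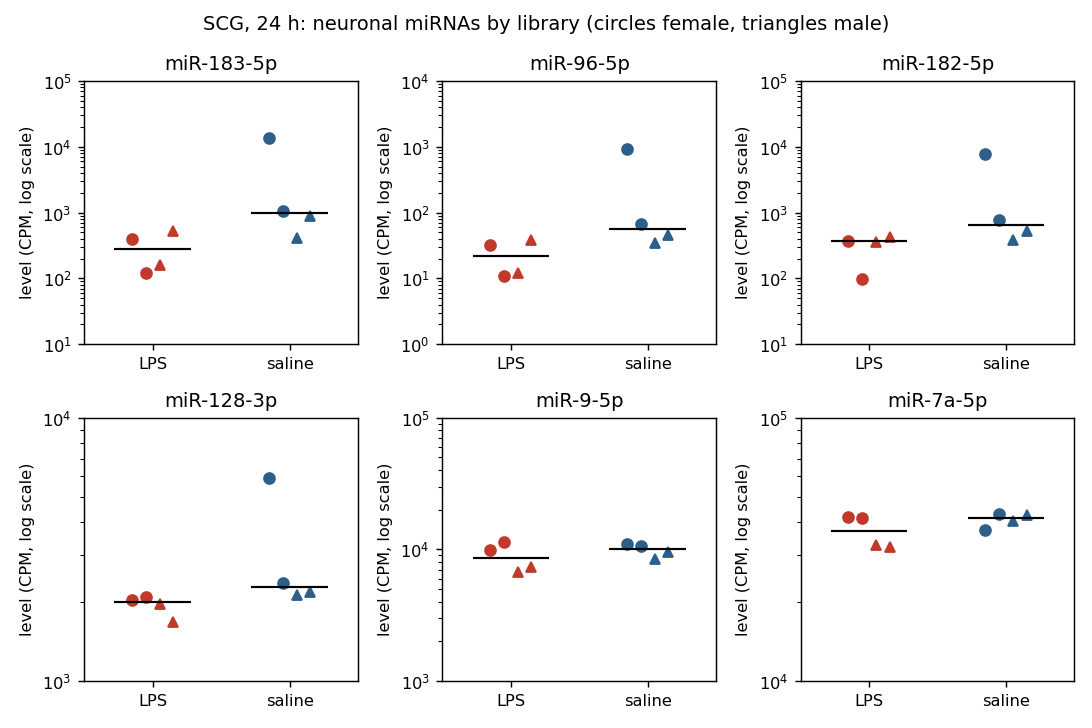
Level in CPM on a log scale of 6 neuronal miRNAs in each SCG library of 24 h, LPS left of saline; points are libraries (circles female, triangles male) and lines group medians. Saline replicate 1 stands above the rest for miR-183-5p (13472 CPM), miR-96-5p (936.5 CPM), miR-182-5p (7760 CPM) and miR-128-3p (5923 CPM), but not for miR-9-5p or miR-7a-5p.

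Both sexes showed the rise of the called miRNAs. MiR-155-5p had a log2 fold change of 2.99 ± 0.56 in males and 3.14 ± 0.56 in females, and miR-21a-5p one of 2.19 ± 0.43 in males and 2.05 ± 0.42 in females (SE, 2 libraries a group). For the other 4 the male value was the larger. It was 1.52 in males and 0.99 in females for miR-146a-5p, 1.396 and 1.201 for miR-223-5p, 0.99 and 0.52 for miR-222-3p, and 1.32 and 0.66 for miR-142a-3p, in the same order. The test of the difference called 0 of 506 miRNAs (0.0%; edgeR interaction, 18 at unadjusted p under 0.05) and 0 of 544 tRFs (22 unadjusted). With 2 libraries for each sex and treatment this leaves wide errors, 0.74 on the log2 scale for miR-155-5p.

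The LPS effect at 24 h was set beside that of the other times in SCG, each with its own saline libraries. The log2 fold change of miR-155-5p was 1.73 ± 0.37 at 4 h, 3.05 ± 0.39 at 24 h and 2.28 ± 0.38 at 7 d. That of miR-21a-5p was 1.02 ± 0.31, 2.13 ± 0.32 and 1.89 ± 0.31. The 7 d values rest in part on SCG 7 d LPS replicate 2. Without that library the 7 d log2 fold change was 1.74 ± 0.29 for miR-155-5p, 1.40 ± 0.24 for miR-21a-5p and 2.12 ± 0.33 for miR-146a-5p, and the 24 h minus 7 d difference of miR-155-5p was 1.35 ± 0.40 (edgeR, unadjusted p = 0.00318, adjusted p = 0.471). At 24 h miR-155-5p exceeded its 4 h effect by 1.32 ± 0.51 (unadjusted p = 0.0173) and miR-21a-5p by 1.11 ± 0.43 (unadjusted p = 0.0181), and neither passed over all miRNAs (edgeR, adjusted p = 1.00 each). MiR-146a-5p had log2 fold changes of 0.21 ± 0.30 at 4 h, 1.28 ± 0.30 at 24 h and 2.22 ± 0.31 at 7 d, with a 24 h minus 7 d difference of -0.94 ± 0.42 (adjusted p = 0.832). MiR-223-5p had 0.50, 1.32 and 0.56, and miR-222-3p 0.28, 0.79 and 0.45, at 4 h, 24 h and 7 d, and the 7 d values without the outlying library were 0.12 and 0.36. The 24 h minus 7 d difference of miR-223-5p was then 1.22 ± 0.37 (edgeR, adjusted p = 0.471). The interaction tests called 0 of 506 miRNAs between 24 h and 4 h (0.0%; 11 at unadjusted p under 0.05) and 0 between 24 h and 7 d (0.0%; 27). For tRFs they called 0 of 544 in both (41 and 24 unadjusted).

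The same 2 miRNAs were set beside the sensory ganglion at the same time. In TG at 24 h miR-155-5p had a log2 fold change of 1.93 ± 0.37 and miR-21a-5p one of 1.29 ± 0.24 (fit of 48 libraries). The SCG effect was larger by 1.09 ± 0.51 in the case of miR-155-5p (unadjusted p = 0.0374, adjusted p = 0.999). It was larger by 0.82 ± 0.34 in that of miR-21a-5p (unadjusted p = 0.0199, adjusted p = 0.890, edgeR interaction). By level, miR-155-5p in TG averaged 34.95 ± 13.6 CPM after LPS and 9.18 ± 2.57 CPM after saline (SD, n = 4 each). MiR-142a-3p in TG averaged 60.3 ± 15.3 CPM after LPS and 67.0 ± 35.2 CPM after saline. Over all 577 miRNAs tested in both ganglia 0 differed in their LPS effect (0.0%; 20 at unadjusted p under 0.05), and over 729 tRFs 0 differed (35 unadjusted). Leaving out SCG 24 h saline replicate 2 gave 2 calls and leaving out saline replicate 4 gave 1, all with the lower effect in SCG. The labels do not tie SCG and TG libraries to a mouse.

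No tRF passed the test at 24 h. Of 13007 annotated tRFs, 5570 had a count in the 8 libraries and 544 passed the filter on low counts. EdgeR called 0 of them (0.0%), 26 (4.78%) had an unadjusted p under 0.05, and DESeq2 called 0. In all 4 LPS libraries 14 tRFs (2.57%) were higher than in every saline library and 3 (0.551%) were lower.

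The share of each fragment type overlapped between the groups. The 5'-half fragments held 65.7 ± 6.85% of tRF counts after LPS and 65.4 ± 10.8% after saline (SD, n = 4 each), and 5'-tRFs 25.2 ± 8.58% and 27.7 ± 10.9%. The 3'-tRFs held 6.23 ± 4.53% after LPS and 4.16 ± 2.56% after saline, i-tRFs 2.70 ± 1.29% and 2.55 ± 1.49%, and 3'-half fragments 0.154 ± 0.0574% and 0.172 ± 0.0959%. The exact permutation test gave an adjusted p of 0.971 for each of the 5 types (two-sided, 70 assignments). The smallest p that 4 against 4 libraries can give is 0.0286, and 0.143 after adjustment where 1 type alone differs, so a difference in a single type could not have passed. Counting error on a share in a single library was at most 0.346 points to either side (95% Wilson interval). LPS replicate 1 had 12.97% 3'-tRFs, against 3.21% to 4.63% in the rest of its group, and it was also the shallowest tRF library. Saline replicate 4, the next shallowest, had the highest 3'-tRF share of its group, 7.48%. Of 115 tested 3'-tRFs, 97 had a log2 fold change above 0 (median 0.37), beside 298 of 544 tRFs of all types (median 0.08), and without LPS replicate 1 it was 69 of 118 (median 0.09, beside -0.03 over all types) and without saline replicate 3 it was 74 of 121 (median 0.07).

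**Figure D5:**
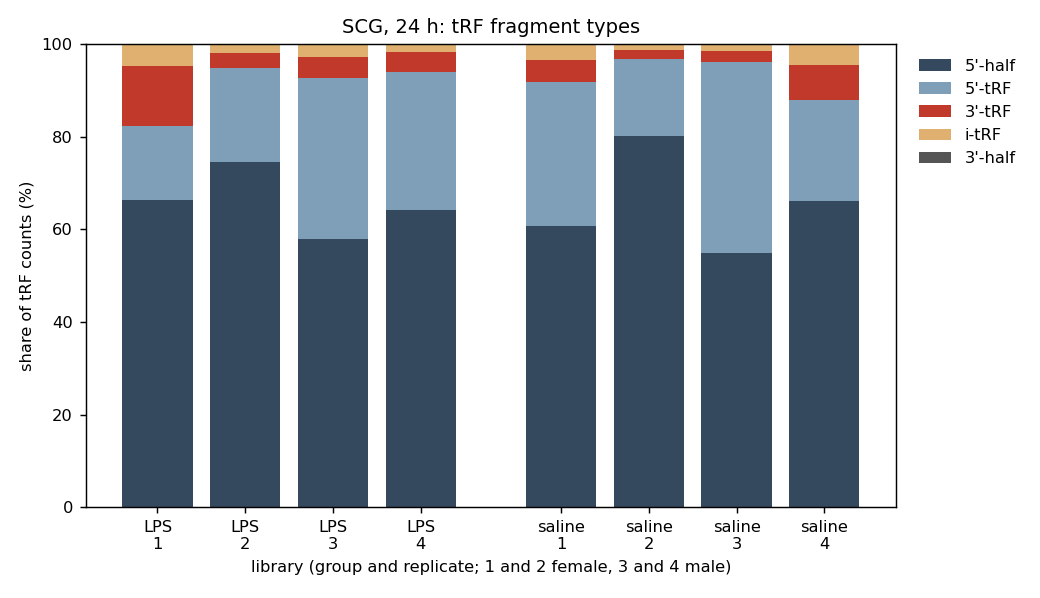
Share of tRF counts in percent by fragment type in each SCG library of 24 h, LPS libraries left and saline libraries right. The 5'-half share runs from 57.8% to 74.4% after LPS and from 54.8% to 80.1% after saline, and LPS replicate 1 has the highest share of 3'-tRFs (12.97%).

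By parent tRNA, glutamate fragments held 70.2 ± 9.80% of tRF counts after LPS and 71.6 ± 7.56% after saline (SD, n = 4 each). Histidine fragments held 10.1 ± 4.61% and 12.5 ± 3.97%, glycine 6.44 ± 2.09% and 5.25 ± 2.40%, and lysine 4.36 ± 1.11% and 4.16 ± 0.163%, after LPS and saline in that order. In every parent group with tested members 0 were called. Of 31 tested fragments of the glycine tRNA with anticodon GCC, 26 had a log2 fold change above 0 (median 0.51), and of 35 aspartate fragments 7 did (median -0.43). Over all tRFs it was 298 of 544 (median 0.08). Other parents also lay to 1 side, with 18 of 58 above 0 for glutamate CTC and 8 of 8 for both cysteine GCA and alanine AGC. Fragments of 1 tRNA can share sequence and are not separate replicates, and the weight of single libraries in these counts was not tested. Total tRF counts per 1000 miRNA counts averaged 63.3 ± 24.9 after LPS and 86.8 ± 43.7 after saline, a log2 ratio of -0.40 (exact permutation p = 0.486, two-sided). The ratio was -0.05 without LPS replicate 1 and -0.78 without saline replicate 4, the shallowest tRF library of each group, and -0.21 and -0.15 without saline replicates 2 and 3. They ranged from 28.05 to 81.4 in LPS libraries and from 34.5 to 130.2 in saline libraries.

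The tRFs of smallest p were mostly scarce. tRF-17-HR0VX6J, from the 3' end of leucine tRNAs, had 358.8, 189.7, 256.1 and 344.2 CPM in the LPS libraries, against 162.1, 109.3, 147.4 and 137.2 CPM in the saline libraries (log2 fold change 1.04 ± 0.33, edgeR, adjusted p = 0.854). The groups did not overlap and LPS replicate 2 was the lowest of its own. tRF-18-XRPM46D2, from the 3' end of an alanine tRNA, had 246.3, 74.01, 110.3 and 118.3 CPM in the LPS libraries, against 52.7, 13.7, 60.5 and 68.6 CPM in the saline libraries (1.48 ± 0.49, adjusted p = 0.854). Its lowest LPS library, replicate 2, lay just above its highest saline library. tRF-38-9LON4VN1EH6KK80E, from inside a glycine tRNA, had 70.4, 60.1, 43.3 and 39.4 CPM in the LPS libraries, against 4.05, 22.8, 18.9 and 20.6 CPM in the saline libraries (1.66 ± 0.61, adjusted p = 0.854). All LPS libraries were higher, on 10 to 13 counts a library after LPS and 1 to 5 counts after saline. So near the filter's minimum count of 10, a tRF can pass through the group where it is high, and the part of this in the separation was not tested. It passed the filter in 8 of the 9 fits that left out a library.

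The proline TGG 5'-half printed above had 1048, 453.3, 1111 and 1083 CPM in the LPS libraries, against 218.9, 223.1, 631.4 and 274.5 CPM in the saline libraries (log2 fold change 1.46 ± 0.54, edgeR, adjusted p = 0.854). LPS replicate 2 lay below saline replicate 3, and the other LPS libraries were above all of saline. tRF-34-RKVP4PRL5FZUHM of a cysteine tRNA rested on LPS replicate 2, at 888.2 CPM against 78.8 to 154.8 CPM in the other LPS libraries and 48.6 to 123.5 CPM in saline libraries. Of the 2 with negative values, a 3'-tRF of 16 bases from a tyrosine tRNA had 379.9, 263.7, 370.4 and 355.0 CPM in the LPS libraries and 401.3, 596.5, 858.2 and 974.5 CPM in the saline libraries (-0.97 ± 0.36, adjusted p = 0.854).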

How the data were processed

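The authors deposited tables of whole-number counts per mature miRNA and per tRF, 1 column a library, per the file headers. FastQC 0.11.9 and the build GRCm39 are named in the submitters' processing notes; for the aligner, counter and any filter, the tool was not given in the sources used here. The column of SCG 24 h LPS replicate 2 spells its treatment without the first letter and was assigned by its library number. From these counts, edgeR 4.0.16 (R 4.3.3) fitted the 24 SCG libraries together, with 6 groups of treatment and time and an additive sex term. Features passed filterByExpr with a minimum count of 10 by group, libraries were scaled by TMM, and robust quasi-likelihood F-tests were adjusted by Benjamini-Hochberg over all features tested, with 0.05 as the threshold. Differences between times, sexes and ganglia are interaction contrasts, the last in a fit of all 48 libraries. Errors of log2 fold changes are standard errors. Shares and ratios were compared by exact permutation of 4 against 4 libraries. The scripts were tested on simulated data. DESeq2 1.42.0, other scalings, no filter, no sex term, fewer libraries and leaving out each library were alternatives, with the filter reapplied each time. MiRNAs and tRFs named are those called with or without SCG 7 d LPS replicate 2, the 10 of smallest p, the 5 most abundant, the leading members of each list, other arms of called miRNAs and the leading tRF of each type and amino acid; of these, the ones that bear on a comparison are printed. The members and lists were chosen with earlier results of these data known. The labels call the samples separate but do not say which SCG and TG came from the same mouse. Some tRFs that this rule names are not reported here. RefSeq names matched 437 of 506 tested miRNAs.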

Additional observations from a re-analysis of the deposited data

Results flagged for a closer look

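Of 80 groups of 4 libraries examined, 10 held a library far from the others, where chance alone gives about 1 in 20, or 4. The same cluster, library or tRF recurs among the 10, so the groups are not independent and the excess was not tested. Saline replicate 1 accounts for 5 of the 10. It stood at 13472 CPM for miR-183-5p, 936.5 CPM for miR-96-5p, 7760 CPM for miR-182-5p, 89.05 CPM for miR-216b-5p and 5923 CPM for miR-128-3p, each far above the other saline libraries. In the LPS group, replicate 4 was high for miR-146a-5p at 8389 CPM.

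Among tRFs, LPS replicate 2 was high for tRF-34-RKVP4PRL5FZUHM at 888.2 CPM. For the proline TGG 5'-half of 33 bases, LPS replicate 2 was low at 453.3 CPM and saline replicate 3 high at 631.4 CPM. The 3'-tRF share of LPS replicate 1 was high at 12.97% of its tRF counts.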

How the results depend on the processing

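MiR-21a-5p and miR-155-5p stayed called under every alternative run. The count of called miRNAs, 2 with 24 libraries, was 15 without a filter (7 higher, 8 lower, 4 of these of the miR-183 cluster), 7 by DESeq2 (5 higher, 2 lower), 5 with only the 8 libraries of 24 h and 6 without SCG 7 d LPS replicate 2. Over all fits that left out libraries it ran from 2 to 9. The 9 came from leaving out LPS replicate 2 together with the 7 d library, a pairing chosen after seeing the data. For tRFs the count of 0 became 1 (lower) without a filter and stayed 0 under the other alternatives run. The SCG minus TG count for miRNAs ran from 0 to 2 with a library left out, and the male minus female count from 0 to 1, which came without saline replicate 3; the cause was not tested.

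Differences in fragment share, LPS minus saline in points, moved with single libraries. With each left out in turn they ran from -3.277 to 5.171 for 5'-half, from -6.178 to 2.077 for 5'-tRF, from -0.4551 to 0.7455 for i-tRF, from -0.05263 to 0.0214 for 3'-half and from -0.1719 to 3.179 for 3'-tRF. The sign turned for 5'-half without LPS replicate 2 (-2.655), saline replicate 1 (-1.312) or saline replicate 3 (-3.277), and for 5'-tRF without LPS replicate 1 (0.6049) or saline replicate 3 (2.077). It turned for i-tRF without LPS replicate 1 (-0.4551), saline replicate 2 (-0.303) or saline replicate 3 (-0.207), for 3'-half without saline replicate 4 (0.0214), and for 3'-tRF without LPS replicate 1 (-0.1719); the cause was not tested. No paired analysis was possible because the replicate numbers only name the libraries and the labels tie no LPS mouse to a saline mouse. Among lists without a call in the joint fit, the median log2 fold change changed sign under some of the 23 settings. This held for glia (-0.26 to 0.23), endothelium (-0.05 to 0.40), muscle (-0.28 to 1.09), epithelium (-1.06 to 1.36) and the miR-132 cluster (-0.32 to 0.28). It also held for the erythroid (-0.05 to 0.51), mesenchyme and smooth muscle (-0.24 to 0.73), liver and gut (-0.08 to 0.06) and let-7 (-0.13 to 0.19) lists. Scaled to total counts without TMM factors, a tRF at the 3-count limit corresponds to 7.80 to 41.9 CPM. On that scale a miRNA at the limit corresponds to 0.855 to 1.2 CPM. The CPM of libraries given above include TMM factors, so they are not on the same scale as these limits.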
